A study of Mytilus galloprovincialis with 18 samples.

Results

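The gills of mussels kept in 100 nM of a metal mixture were compared with those of mussels kept in 50 nM, across every probe of the array. The members are the arrays whose titles give 1 of these doses: 12 of the 18 arrays of the series, from 6 of its 9 mussels, each read over all 1920 probes. The animals were mixed-sex adult Mediterranean mussels (Mytilus galloprovincialis) from a farming site, and they received cadmium, copper and mercury chlorides in equal molar amounts for 48 h. RNA came from 1 half-gill of each of 3 mussels per dose. It was labelled with Cy3 or Cy5 and hybridised on a spotted cDNA array, on which it competed with reference RNA for the same probes, with array B of each mussel repeating array A with the dyes swapped. The reference, as the study describes it, came on every array from 1 RNA pool made of the gills of 5 controls, so it cancels when the doses are subtracted. The control image of array A of 100 nM replicate 1 carries a different letter in its header, and whether that array had the same pool was not tested. Mussels of a dose shared 1 tank, so dose and tank cannot be told apart. Every level given is the log2 ratio of a mussel over the control pool, the mean of its arrays A and B, and every difference is the mean at 100 nM minus the mean at 50 nM on the same log2 scale. A difference of 1 is a 2-fold difference between the doses.

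The third mussel at 50 nM ran against the other 5. Across the 1920 probes its log2 ratios correlated with theirs at -0.38 to -0.16, where the other 5 correlated among themselves at 0.15 to 0.35. The points of these correlations share the pool and the array design. In the deposited processed values the same figures were -0.47 to -0.20 and 0.17 to 0.41. Replicates 1 and 2 at 50 nM lay on the same side of the pool in 897 probes, and replicate 3 lay on the other side in 517 of them (57.6%). The dyes are stated for its arrays, but the direction of its ratio is not settled by these values. Not every gene ran against the others: small HSP24.1 was at 0.69 in replicate 3 on Myt01-011G05, beside 0.89 and 0.53 in replicates 1 and 2. On its other probe, Myt01-013C12, it was at -0.34 beside 1.58 and -0.087. Results are therefore given as labelled and without replicate 3, and the leading ones also with its sign turned.

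Cadmium, copper and mercury ions bind thiol groups, damage folded proteins and raise oxidative stress. Cells are known to answer with chaperones that hold or refold proteins, with the ubiquitin and proteasome system and autophagy, which clear damaged ones, and with glutathione-dependent enzymes. The bivalve gill is a sheet of ciliated epithelium that pumps and filters sea water, and it is among the first tissues to meet dissolved metals. Roles given below are those known from human, mouse or fruit fly unless the gene is specific to mussels, and a probe carries the name of the sequence it is most similar to, as the study's own lists give it.

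Over the 12 arrays the median spot intensity ranged from 361 to 1212 for the mussel's RNA and from 245 to 2787.5 for the pool, and 1653 probes (86.1%) were above background, by 2 SD, in both channels of all 12. The median SD among the 3 mussels of a dose was 0.27 at 50 nM and 0.24 at 100 nM, and 0.24 at 50 nM without replicate 3. Arrays A and B of 1 mussel correlated at 0.039 to 0.455 across probes, and the dose difference computed on arrays A correlated with that on arrays B at 0.149, or 0.103 without replicate 3. A description was at hand for 446 probes, of which 172 read "without similarity", and 1474 had none.

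No probe separated the doses at the threshold. In limma, with an adjusted p under 0.05 by Benjamini-Hochberg over all probes, 0 of 1920 (0%) were called as labelled, 0 without replicate 3 and 0 with its sign turned. The smallest adjusted p values were 0.998, 0.997 and 0.819. At an unadjusted p under 0.05 there were 85 probes (4.43%), 37 higher at 100 nM (1.93%) and 48 lower (2.5%). Without replicate 3 there were 74 (3.85%), 27 higher (1.41%) and 47 lower (2.45%), and with its sign turned 91 (4.74%), 38 higher (1.98%) and 53 lower (2.76%). Leaving out replicate 1 at 50 nM instead gave 136 (7.08%), leaving out replicate 1 at 100 nM, with the differing control image, gave 84 (4.38%), and using the replicate number as a block gave 86 (4.48%). The block with the sign turned was the only fit tried that called a probe at the adjusted threshold, 1 (0.0521%), which was Myt01-008B03. A share near 5% is the one that this threshold gives when no probe differs. All 3 mussels at 100 nM lay above all 3 at 50 nM in 69 probes (3.59%) and below them in 89 (4.64%). Without replicate 3 these counts were 156 (8.12%) and 164 (8.54%), and with its sign turned 101 (5.26%) and 87 (4.53%). Groups with fewer mussels fail to overlap more easily, so the counts without replicate 3 are not comparable with the others. In 19 probes (0.99%) all 3 mussels at 50 nM were above the pool and all 3 at 100 nM below it, and in 9 (0.469%) the reverse. Since no probe passed, the intervals below are 95% intervals of the difference from limma and carry no correction for the number of probes.

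The intervals say what size of difference these mussels could have hidden. The standard error of a difference had a median of 0.23, and the 95% interval reached 0.51 to either side in the median probe. In 1644 probes (85.6%) the whole interval lay within 1 of 0, which leaves out a 2-fold difference of the processed array ratio either way. How closely these ratios follow transcript levels was not tested. Without replicate 3 this held for 1513 (78.8%), and with its sign turned for 1690 (88.0%). The difference itself was beyond 1 in 15 probes, 5 higher and 10 lower at 100 nM. Over all probes the median difference was -0.0034, and 948 probes (49.4%) had a difference above 0, or 973 (50.7%) without replicate 3 and 984 (51.2%) with its sign turned.

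**Figure D1:**
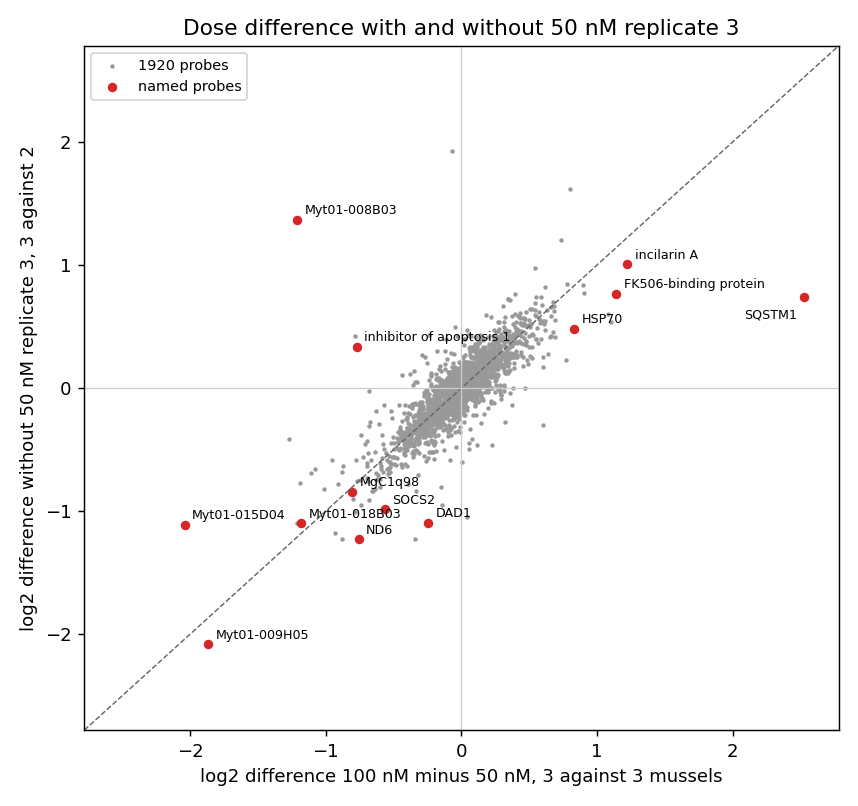
Each point is 1 of 1920 probes, with the log2 difference 100 nM minus 50 nM as labelled on the horizontal axis and the difference without 50 nM replicate 3 on the vertical axis. Probes off the diagonal are those whose difference depends on that mussel, such as Myt01-008B03, which goes from -1.21 to 1.37.

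Among genes of protein quality control, FK506-binding protein had the smallest p, and sequestosome-1 had the highest difference of all probes. FK506-binding protein (Myt01-012A04), a prolyl isomerase that helps proteins fold, had log2 ratios of 0.63, 0.32 and -0.65 at 50 nM and 1.46, 1.39 and 0.89 at 100 nM. All mussels at 100 nM were above all at 50 nM, with or without replicate 3 and with its sign turned. The difference was 1.14 ± 0.30 (SE), a 2.21-fold higher level at 100 nM, with a 95% interval of 0.49 to 1.80. Without replicate 3 it was 0.77 (95% interval 0.25 to 1.28), or 1.7-fold, and with the sign turned 0.71. It was 1.04 on arrays A alone and 1.24 on arrays B alone.

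Sequestosome-1 (SQSTM1, Myt01-007D04), the receptor that carries ubiquitinated cargo to autophagy, reached 4.32, 1.54 and -2.43 at 50 nM and 2.90, 4.36 and 3.76 at 100 nM. The mussels at 100 nM were all far above the pool, while those at 50 nM spanned the widest range of any named stress gene, and the groups overlapped. The difference was 2.53 ± 1.23 (SE), with a 95% interval of -0.16 to 5.21. Leaving out replicate 3 took it from 5.76-fold to 1.67-fold, a difference of 0.74 with an interval of -0.82 to 2.30, and with the sign turned it was 0.91. In the mussels other than 50 nM replicate 3, SQSTM1 was above the pool in 5 of 5, and the interval of the difference between doses included 0.

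HSP70 (Myt01-014B11), the stress-inducible chaperone, had ratios of 0.72, 0.29 and -0.55 at 50 nM and 1.24, 0.92 and 0.81 at 100 nM. Again the groups did not overlap under any treatment of replicate 3. The difference was 0.83 ± 0.31 (SE) (95% interval 0.16 to 1.50), but it was 0.48 without replicate 3, with an interval of -0.093 to 1.06. Its constitutive relative HSC70 (Myt01-010B03) showed 0.57, 1.56 and -0.42 at 50 nM and 0.37, 1.02 and 0.56 at 100 nM, groups that overlapped. The HSC70 difference was 0.078 as labelled and -0.42 without replicate 3, and it was also below 0 on arrays B alone, at -0.34.

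The other chaperones overlapped between doses, except cyclophilin. The HSP90 probes, for a chaperone of kinases and receptors, had differences of 0.10 (Myt01-016G09) and -0.20 (Myt01-015D01). They became -0.034 and -0.46 without replicate 3, and the first turned sign with median centring and the second with print-tip loess. The small HSP24.1, which holds unfolding proteins, had 0.13 on Myt01-011G05 and 0.64 on Myt01-013C12, or 0.13 and 0.28 without replicate 3, and the mussels on the latter probe ran from -0.34 to 2.01. Chaperonin subunit 7 (Myt01-014B06), of the double-ring chaperonin for cytoskeletal proteins, was at 0.29 as labelled and -0.032 without replicate 3. Cyclophilin (Myt01-006A07), another prolyl isomerase, ran the other way from FK506-binding protein, with 0.026, 0.043 and 0.40 at 50 nM and -0.83, -0.14 and -0.30 at 100 nM. Its groups did not overlap and lay on opposite sides of the pool, with a difference of -0.58 ± 0.26 (SE) and a 95% interval of -1.14 to -0.013, and -0.46 without replicate 3 (95% interval -1.09 to 0.18).

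As a group, the 11 heat shock proteins and chaperones had a median difference of 0.10 against -0.0034 over all probes, with 8 above and 3 below 0. Without replicate 3 the median was -0.032, with 4 above 0. Their median level was 0.63, 0.32 and -0.19 in the mussels at 50 nM and 0.23, 0.84 and 0.56 in those at 100 nM. Only 50 nM replicate 3 had this median below the pool. The 13 proteasome and ubiquitin probes, SQSTM1 among them, went from a median of 0.18 to -0.080 without it. As labelled 0 of the 13 passed an unadjusted p under 0.05, where 4.43% of all probes did. The study's lists name a ubiquitin probe and also a polyubiquitin probe. The ubiquitin probe (Myt01-015G01) was at -0.040, 0.38 and -0.068 at 50 nM and -0.69, -0.20 and -0.42 at 100 nM, with every mussel at 100 nM below every mussel at 50 nM. Its difference was -0.53 ± 0.25 (SE) (95% interval -1.07 to 0.019), and -0.60 without replicate 3.

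**Figure D2:**
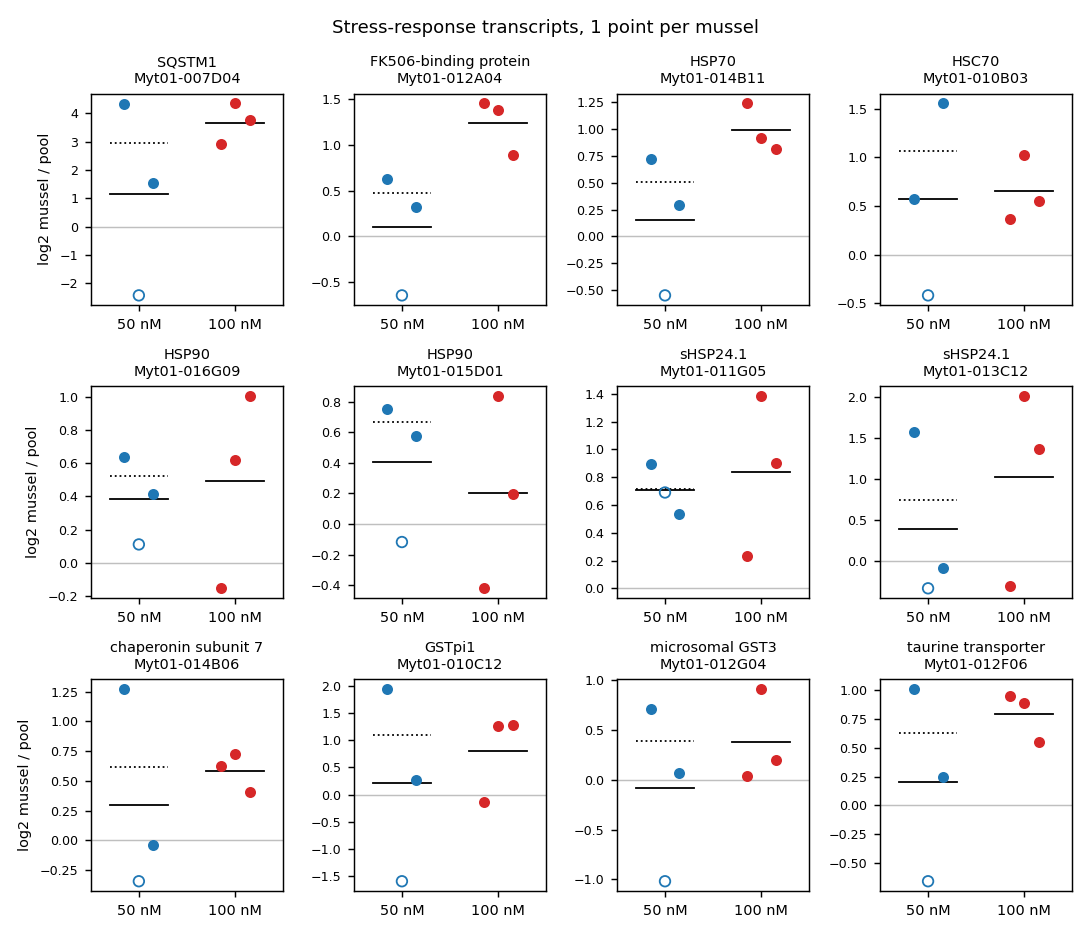
Log2 ratio over the control pool in each mussel at 50 and 100 nM for stress genes, 1 panel per gene. Points are mussels, the hollow point is 50 nM replicate 3, the solid line is the mean of 3 mussels and the dotted line is the 50 nM mean without replicate 3. In sequestosome-1 the mean at 50 nM is 1.15 with replicate 3 and 2.93 without it.

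For the glutathione S-transferases the sign of the difference rested on replicate 3 at 50 nM. Glutathione S-transferase pi 1 (GSTpi1, Myt01-010C12), which joins glutathione to reactive molecules, stood at 1.95, 0.27 and -1.60 at 50 nM and -0.14, 1.27 and 1.29 at 100 nM. The doses overlapped, and mussels of 50 nM were both the highest and the lowest. The difference was 0.60 ± 0.71 (SE) as labelled, -0.30 without replicate 3 and -0.46 with its sign turned. The membrane-bound microsomal GST3 (Myt01-012G04) gave 0.47, -0.0023 and -0.21 in the same order. The selenium-binding protein (Myt01-013B09), which binds selenium and is linked to redox balance, was an exception at -0.28, 0.63 and -0.25 at 50 nM and -0.41, -0.63 and -0.66 at 100 nM. All mussels at 100 nM were below all at 50 nM under each treatment of replicate 3. The difference was -0.60 ± 0.25 (SE) (95% interval -1.14 to -0.061), -0.74 without replicate 3 (95% interval -1.34 to -0.14) and -0.76 with the sign turned. Over the 7 metal binding and antioxidant probes the median difference was 0.27 as labelled and -0.30 without replicate 3.

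Of the transporters, membrane magnesium transporter 1 (Myt01-002C12), an endoplasmic reticulum membrane protein that carries magnesium, had ratios of -0.21, 0.082 and -0.50 at 50 nM and 0.33, 0.45 and 0.45 at 100 nM. The groups did not overlap as labelled or without replicate 3, and overlapped with its sign turned. The difference was 0.62 ± 0.22 (SE) (95% interval 0.14 to 1.09) and 0.47 without replicate 3 (95% interval -0.040 to 0.98). The taurine transporter (Myt01-012F06), which imports the main organic osmolyte of marine bivalves, was at 1.01, 0.25 and -0.66 at 50 nM and 0.95, 0.89 and 0.55 at 100 nM, with the doses overlapping. Its difference of 0.60 became 0.17 without replicate 3. For 6 transporters and channels the median was 0.22, with 4 above 0, and 0.13 without replicate 3, and 1 of the 6, the magnesium transporter, passed an unadjusted p under 0.05 as labelled, where 4.43% of all probes did. Without replicate 3, and with its sign turned, 0 of the 6 passed.

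In signalling and cell death, SOCS2 and DAD1 had intervals below 0 once replicate 3 was left out. SOCS2 (Myt01-012D01), a feedback inhibitor of cytokine receptors, had 1.47, 0.92 and -0.055 at 50 nM and -0.21, 0.38 and 0.46 at 100 nM. Replicates 1 and 2 at 50 nM were the highest of the 6 mussels, and replicate 3 lay among those at 100 nM. Its difference was -0.57 ± 0.37 (SE) as labelled and -0.98 without replicate 3 (95% interval -1.70 to -0.27), and -0.60 with the sign turned. DAD1 (Myt01-017B11), a subunit of the oligosaccharyltransferase whose loss triggers apoptosis, had 2.06, 0.60 and -1.23 at 50 nM and 0.33, 0.0044 and 0.37 at 100 nM. Without replicate 3 both mussels at 50 nM were above all at 100 nM. The difference moved from -0.24 to -1.09 without it (95% interval -2.01 to -0.18) and to -1.06 with its sign turned.

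Inhibitor of apoptosis 1 (Myt01-007H08), which restrains caspases, had signs opposite to those of DAD1 at 50 nM, with -1.80, -1.99 and 1.42. At 100 nM it was at -1.43, -1.74 and -1.51. Of the 6 ratios, 5 were far below the pool, and replicate 3 at 50 nM was above it. The difference was -0.77 as labelled and 0.34 without that mussel. Caspase 3/7-3 (Myt01-011F10), an executioner protease, was at -0.26, 0.016 and 0.035 at 50 nM and 0.28, 1.01 and 0.13 at 100 nM. Its groups did not overlap, with a difference of 0.54 ± 0.30 (SE) and a 95% interval of -0.12 to 1.21, and 0.60 without replicate 3. GADD45 gamma (Myt01-006C05), a growth arrest and DNA damage protein, had a difference of 0.20 with a 95% interval of -0.54 to 0.95, and 0.16 without replicate 3.

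The receptor for activated C-kinase (RACK, Myt01-007H10), a scaffold on ribosomes and in kinase signalling, had values of -0.047, -0.45 and 0.32 at 50 nM and 0.88, 0.35 and 0.25 at 100 nM. As labelled the doses overlapped through replicate 3 alone. The difference was 0.55 as labelled, 0.74 without it (95% interval 0.16 to 1.33) and 0.77 with its sign turned. Phospholipase A2 (Myt01-014H05), which frees arachidonic acid from membranes, had 0.76, 0.52 and 0.27 at 50 nM and -0.00094, -0.050 and 0.10 at 100 nM. Every mussel at 100 nM was close to the pool and below every mussel at 50 nM, with a difference of -0.50 ± 0.21 (SE) (95% interval -0.95 to -0.048), and -0.62 without replicate 3. The 11 probes of stress kinase and cytokine signalling had a median of -0.087, and the 10 of cell cycle and apoptosis -0.070, or -0.16 and -0.045 without replicate 3.

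Stress, signalling and related transcripts that the study dwells on were also read as a panel of 24 probes, chosen with earlier results of these data known. Of these, 15 had a difference above 0 as labelled, 11 without replicate 3 and 13 with its sign turned. Over all probes the shares were 49.4%, 50.7% and 51.2%. Leaving replicate 3 out changed the sign in 6 of the panel and made the difference smaller in 17. All 3 mussels lay on 1 side of the pool in 17 of the 24 at 100 nM and in 6 at 50 nM, against 681 (35.5%) and 380 (19.8%) of all 1920 probes. The panel comes from lists that the study selected on these samples. Replicates 1 and 2 at 50 nM had the same sign in 18, and replicate 3 the opposite sign in 12 of those. Over all probes of that kind replicate 3 had the opposite sign in 57.6%. The 95% interval lay within 1 of 0 in 7 of the 24 as labelled and in 10 without replicate 3. Over all probes these shares were 85.6% and 78.8%.

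**Figure D3:**
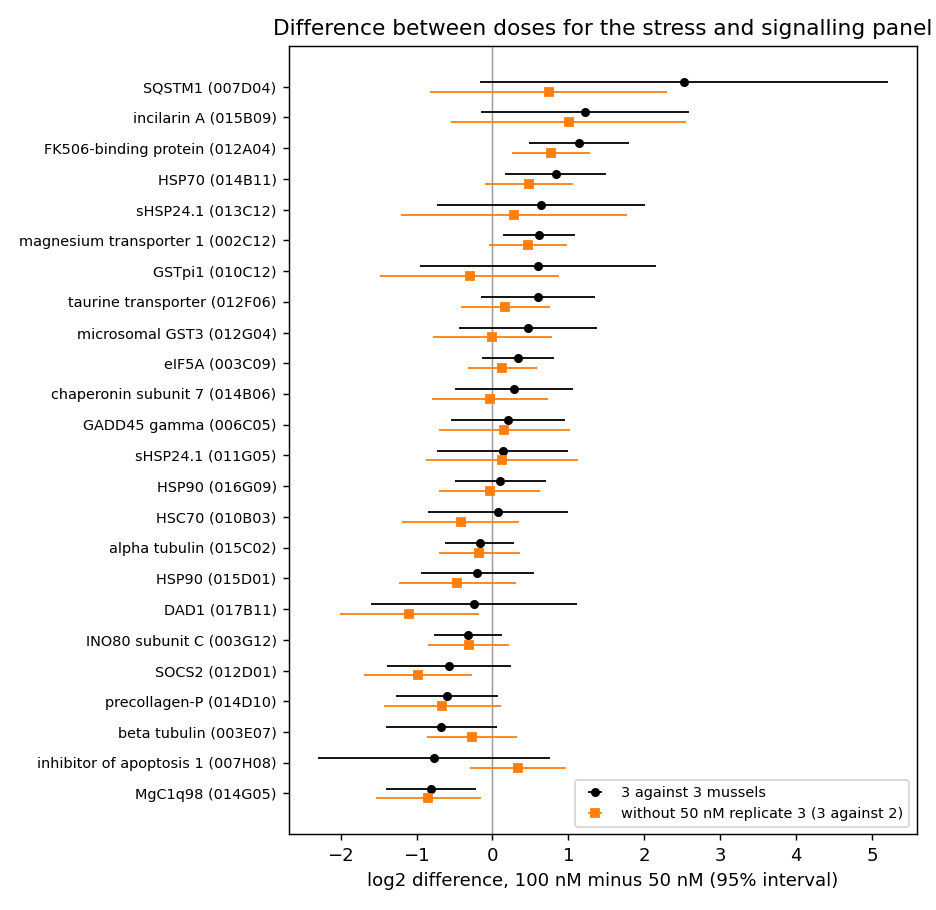
Difference of log2 ratios, 100 nM minus 50 nM, with its 95% interval from limma for each of the 24 panel probes, as labelled and without 50 nM replicate 3. Sequestosome-1 has the widest interval, -0.16 to 5.21 as labelled, and the intervals of FK506-binding protein lie above 0 both ways.

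Of the 16 RNA-binding and splicing probes, 3 were higher and 1 lower at an unadjusted p under 0.05 as labelled, where 4.43% of all probes passed, and 0 without replicate 3. DEAD box polypeptide 17 (Myt01-007F09), an RNA helicase of splicing and transcription, had -0.031, -0.38 and 0.50 at 50 nM and -1.32, -0.92 and -0.30 at 100 nM. Replicate 3 at 100 nM lay just inside the 50 nM range, so the groups overlapped. The difference was -0.87 ± 0.29 (SE) (95% interval -1.51 to -0.23) and -0.64 without replicate 3 at 50 nM (95% interval -1.29 to 0.020). The core splicing proteins snRNP B (Myt01-002A11) and snRNP G were higher by 0.69 and 0.66, or 0.41 and 0.42 without replicate 3. The cold shock domain protein (Myt01-015F10), which binds single-stranded RNA, was at -0.039, 0.018 and -0.23 at 50 nM and 0.53, 0.52 and 0.38 at 100 nM. Its doses did not overlap under any treatment of replicate 3, and the difference was 0.56 ± 0.21 (SE) (95% interval 0.10 to 1.02), and 0.49 without replicate 3. The median of all 16 was 0.21, and 0.12 without replicate 3.

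In the chromatin group, high mobility group protein D (Myt01-011C01), which bends DNA, had -0.064, 0.52 and -0.18 at 50 nM and 0.70, 1.19 and 0.45 at 100 nM. The groups overlapped through replicate 2 at 50 nM, with a difference of 0.69 ± 0.26 (SE) (95% interval 0.11 to 1.27). Without replicate 3 at 50 nM it was 0.56 (95% interval -0.092 to 1.21). INO80 complex subunit C (Myt01-003G12), of a nucleosome remodeller, had a difference of -0.32, and -0.31 without replicate 3. The 15 chromatin, replication and transcription probes had a median of 0.10, with 11 above 0, and 0.16 without replicate 3.

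Ribosomal proteins and translation factors had medians closer to 0 without replicate 3. The 35 ribosomal proteins had differences of -0.20 to 0.52 and a median of 0.18, with 26 above 0. Their median level was 0.079, -0.056 and -0.23 in the mussels at 50 nM and 0.046, 0.072 and 0.036 in those at 100 nM, so that replicate 3 at 50 nM was the lowest. Without it the median difference was 0.064, with 21 above 0. Ribosomal protein S27E (Myt01-018F02), of the small subunit, had the highest difference of them, 0.52 ± 0.24 (SE) (95% interval 0.0030 to 1.03), and 0.25 without replicate 3. Among 12 translation factors the poly(A)-binding protein (Myt01-005D09), which holds the messenger RNA tail, was at 0.41, 1.49 and 0.29 at 50 nM and 0.11, -0.36 and 0.088 at 100 nM. All mussels at 100 nM were below all at 50 nM, with a difference of -0.78 ± 0.34 (SE) (95% interval -1.52 to -0.048) and -1.004 without replicate 3 (95% interval -1.79 to -0.21). Initiation factor 5A (Myt01-003C09), which relieves stalled ribosomes, gave 0.34 as labelled and 0.13 without replicate 3. The median of the 12 was 0.19 as labelled and -0.041 without it.

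Mitochondrial transcripts lay on both sides of 0. The 13 probes of the mitochondrial genome had a median of -0.063, with 5 above and 8 below 0, and -0.054 without replicate 3. Their lowest was ND6 (Myt01-019B08), a subunit of respiratory complex I, at 0.57, 0.78 and -0.75 at 50 nM and -0.26, -1.01 and -0.40 at 100 nM. Replicates 1 and 2 at 50 nM were above the pool and the other 4 mussels below it. The difference was -0.75 ± 0.42 (SE) as labelled, -1.23 without replicate 3 (95% interval -2.04 to -0.42) and -1.26 with its sign turned (95% interval -1.93 to -0.58). Cytochrome b, of complex III and read from the same small genome, has several probes in the study's lists. Its probe Myt01-011C05 was the highest of the 13 at -0.44, -0.41 and -0.50 at 50 nM and 0.43, 0.041 and -0.40 at 100 nM. Its groups did not overlap, by a narrow margin at replicate 3 of 100 nM, and the difference was 0.47 ± 0.22 (SE), and 0.45 without replicate 3 at 50 nM. The 6 nuclear-encoded respiratory proteins had a median of -0.21 (-0.14 without replicate 3), with 5 below 0. As labelled 0 of the 6 passed an unadjusted p under 0.05, where 4.43% of all probes did.

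Cilia carry the main work of the gill, and their genes check what cells the samples held. In bulk tissue, fewer cells of a type and less RNA per cell cannot be told apart. The 11 cilia and microtubule probes had a median difference of -0.26, with 9 below 0, and -0.28 without replicate 3. Per mussel, the median level was -0.58, -0.0042 and 0.018 in the mussels at 50 nM and -0.37, -0.32 and -0.51 in those at 100 nM. The doses overlapped, since replicate 1 at 50 nM was the lowest of all. As labelled 0 of 11 passed an unadjusted p under 0.05, where 4.43% of all probes did. Beta tubulin, of the ciliary axoneme and the cytoskeleton, was at -1.09, -0.45 and 0.44 at 50 nM and -1.14, -0.93 and -1.06 at 100 nM. Its difference was -0.67 as labelled and -0.27 without replicate 3. Alpha tubulin has several probes in the study's lists. Its probe Myt01-015C02 had a difference of -0.17 with a 95% interval of -0.62 to 0.28, and -0.17 without replicate 3. The 4 actin cytoskeleton probes turned from a median of -0.22 to 0.27 without replicate 3.

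Markers of other tissues that could come with a gill sample had medians of -0.048 for 6 haemocyte probes, 0.015 for 10 foot and byssus probes, 0.020 for 5 of the digestive gland and -0.10 for 3 of the gonad. Without replicate 3 they were -0.00089, -0.027, 0.12 and -0.069. Among these 24, 1 passed an unadjusted p under 0.05 as labelled, a probe of the byssal precollagen-D, where 4.43% of all probes passed, and 0 did without replicate 3. The 3 muscle probes had a median of -0.26, and -0.33 without replicate 3. Paramyosin (Myt01-011B08), of the thick filaments of molluscan catch muscle, was at 0.49, -0.047 and 0.070 at 50 nM and -0.19, -0.46 and -0.37 at 100 nM. The doses did not overlap, and the difference was -0.51 ± 0.23 (SE) (95% interval -1.02 to -0.0094). Without replicate 3 at 50 nM it was -0.56 (95% interval -1.15 to 0.022). The part of cell composition in the differences above was not tested.

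**Figure D4:**
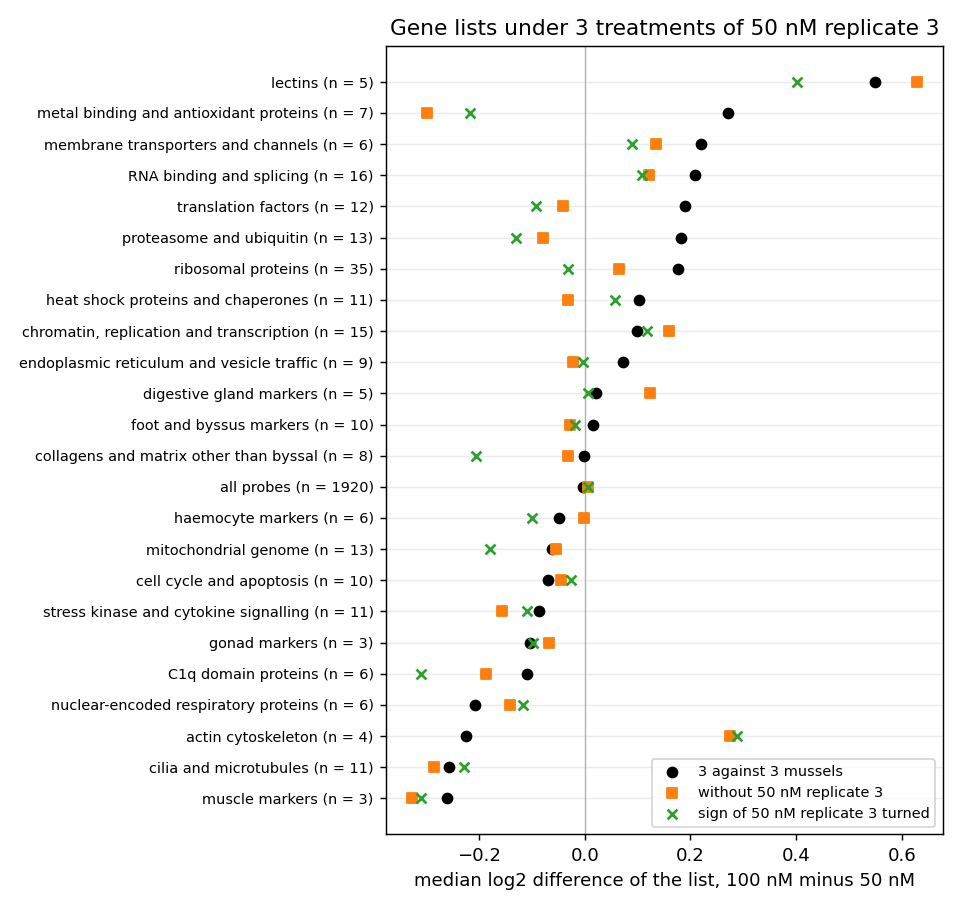
Median log2 difference, 100 nM minus 50 nM, of each gene list, as labelled, without 50 nM replicate 3 and with its sign turned, beside the median over all 1920 probes. Actin, metal binding and antioxidant, and proteasome and ubiquitin genes are among the lists whose median changes sign without that mussel.

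The 5 lectins, which recognise sugars on microbes, all had differences above 0 as labelled, with a median of 0.55, and 0.63 without replicate 3. With its sign turned 4 of the 5 were above 0. Over all probes 49.4% were above 0 as labelled and 51.2% with the sign turned. As labelled 1 of the 5 passed an unadjusted p under 0.05, where 4.43% of all probes did. C-type lectin 5 (Myt01-001D10) was at -0.11, 0.015 and -0.22 at 50 nM and 0.21, 1.15 and 0.38 at 100 nM. Its doses did not overlap as labelled, and the difference was 0.69 ± 0.27 (SE) (95% interval 0.091 to 1.28). Without replicate 3 it was 0.63 (95% interval -0.060 to 1.32). Incilarin A (Myt01-015B09), a lectin-like protein named from slug mucus, differed by 1.22 ± 0.62 (SE), with overlapping mussels, and by 1.01 without replicate 3. The C1q domain proteins, secreted recognition proteins of a family much expanded in mussels, had a median of -0.11, with 5 of 6 below 0, and -0.19 without replicate 3. MgC1q98 (Myt01-014G05) was at 0.49, 0.19 and 0.23 at 50 nM and -0.94, -0.19 and -0.37 at 100 nM. All mussels at 50 nM were above the pool and all at 100 nM below it. The difference was -0.80 ± 0.27 (SE) (95% interval -1.40 to -0.21) and -0.84 without replicate 3 (95% interval -1.53 to -0.15). The sixth, MgC1q8 (Myt01-015F11), ran from -0.78 to 2.40 within 100 nM, and its difference was 0.69, or 0.67 without replicate 3 at 50 nM.

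Matrix genes went both ways. Precollagen-P (Myt01-014D10), a collagen of the byssal threads by which mussels attach, had 0.32, 0.095 and 0.024 at 50 nM and -0.92, -0.10 and -0.32 at 100 nM. The groups lay on opposite sides of the pool without overlap, and the difference was -0.60 ± 0.31 (SE) (95% interval -1.27 to 0.075), and -0.66 without replicate 3. Precollagen-D (Myt01-011H08), its partner in the distal thread, had a difference of opposite sign, 0.66 ± 0.29 (SE) (95% interval 0.037 to 1.29), from 0.22, 0.067 and -0.079 at 50 nM and 0.066, 0.84 and 1.30 at 100 nM. Here the doses overlapped at replicate 1 of 100 nM, and the difference was 0.59 without replicate 3 at 50 nM. The study's lists name other probes for both precollagens, so the contrast is between 1 probe of each and not between the genes. Of the 10 foot and byssus probes, 5 had a difference above 0 and 5 below. A collagen pro alpha-chain had every mussel at 100 nM below every mussel at 50 nM, with a difference of -0.52 as labelled and -0.62 without replicate 3. Collagen XII (Myt01-010B10) had the lowest difference of the matrix list, -1.21 (-1.09 without replicate 3 at 50 nM), through replicate 2 at 100 nM with -2.96. Its 95% interval as labelled was -2.99 to 0.57, and the doses overlapped. Another probe in the study's lists is also named for collagen XII.

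**Figure D5:**
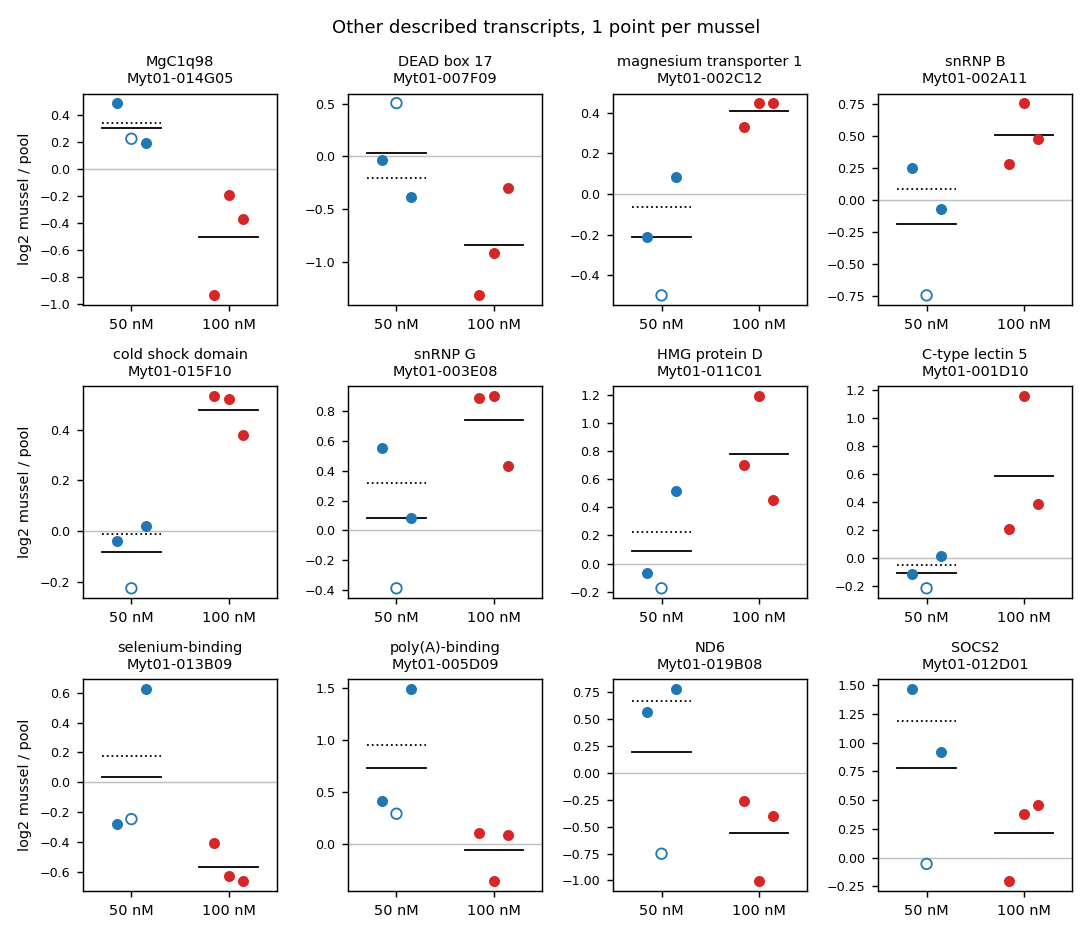
Log2 ratio over the control pool in each mussel at 50 and 100 nM for genes outside the stress groups, 1 panel per gene. Points are mussels, the hollow point is 50 nM replicate 3, and the solid and dotted lines are the means with and without it. In MgC1q98 the mussels at 50 nM lie at 0.19 to 0.49 and those at 100 nM at -0.94 to -0.19.

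Of the 30 probes with the smallest p, 15 in each direction, 13 had no description and 10 read "without similarity", in an array where 1646 of 1920 probes (85.7%) are of these kinds. Their highest unadjusted p in limma was 0.0211, and 29 of them did not overlap between the doses. Over all probes 3.59% lay above at 100 nM without overlap and 4.64% below. The 30 were chosen by p, so their count is a description. All 30 had the same sign without replicate 3 and with it turned, and 21 and 13 of them were under 0.05 in those fits. Those fits share mussels with the fit that chose the 30, so these counts are descriptions too. Over all probes 83.9% kept their sign without replicate 3.

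The smallest p of all was that of Myt01-009H05, a probe with no description, at 1.12, 1.65 and 0.74 at 50 nM and -1.84, -0.17 and -0.073 at 100 nM. All mussels at 50 nM were above the pool and all at 100 nM below it. Its difference was -1.87 ± 0.41 (SE), with a 95% interval of -2.76 to -0.98 and an adjusted p in limma of 0.998, and -2.08 without replicate 3. With the sign of replicate 3 turned it was -1.37 (95% interval -2.57 to -0.17), and the doses overlapped. Among sequences without similarity, Myt01-018B03 had -0.53, -0.34 and -0.19 at 50 nM and -2.39, -1.49 and -0.73 at 100 nM, every mussel below the pool and lower still at 100 nM. The difference was -1.18 ± 0.34 (SE), -1.10 without replicate 3 and -1.31 with its sign turned. Myt01-002B06 differed by 0.90 and Myt01-002D04 by 0.78, both higher at 100 nM, while Myt01-012D05 (-0.82) and Myt01-015H01 (-0.80) were lower. Without replicate 3 these were 0.77, 0.85, -0.83 and -0.90. Myt01-003A01 and Myt01-020G06, with no description, had differences of 0.63 and -0.69 (0.64 and -0.61 without replicate 3), and neither overlapped between doses under any treatment of replicate 3.

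A further 3 probes outside the rule for named genes were picked after their values were seen. Myt01-015D04, named only as a hypothetical protein, had the lowest difference of all, -2.04, from 0.33, 0.37 and 3.14 at 50 nM and -1.93, -1.25 and 0.91 at 100 nM. Replicate 3 was far above the other mussels at 50 nM, and the difference was -1.11 without it and 0.056 with its sign turned. Myt01-008B03 was at -3.72, -2.78 and 4.48 at 50 nM and -2.07, -1.10 and -2.48 at 100 nM, with 5 of 6 mussels far below the pool and replicate 3 at 50 nM far above it. The difference was -1.21 ± 1.58 (SE), 1.37 without replicate 3 and 1.78 with its sign turned. 6-Phosphogluconolactonase (Myt01-015A11), the second enzyme of the pentose phosphate pathway, was at 0.10, 0.55 and 0.015 at 50 nM and -0.24, -0.47 and -0.28 at 100 nM. All mussels at 50 nM were above the pool and all at 100 nM below it, with a difference of -0.55 ± 0.20 (SE) (95% interval -0.99 to -0.11), and -0.66 without replicate 3.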

How the data were processed

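Gill RNA of 6 mussels, 3 each at 50 and 100 nM, was read on 12 two-colour arrays of 3840 spots, 2 per probe. The authors scanned them with a confocal scanner and ScanArray Express, and deposited spot intensity and local background per channel, before subtraction. The authors also deposited a table of log2 ratios of test over reference, scaled in MIDAS to total intensity and then by LOWESS. Whether background was subtracted there is not given in the sources used here. Its column medians were -0.0106 to 0.0203, and it correlated at 0.760 to 0.923 per array with the ratios computed here. The spots of 1 scanner file follow a different order, so all were joined on the probe ID.

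Background was corrected by normexp (offset 50), ratios by loess within arrays (span 0.3, 4 iterations), and spots of a probe were averaged first, then the arrays of a mussel. A mean for each dose was fitted to all 9 mussels of the series with limma 3.58.1 (R 4.3.3), the 3 at 200 nM adding only to the spread, and the doses were subtracted, with Benjamini-Hochberg adjustment over 1920 probes. The steps were tested on simulated data. Normexp at low intensity can inflate or shrink ratios, so no subtraction, plain subtraction, print-tip loess, median centring, scaling, single dye orientations, array weights, a replicate block and the authors' values were tried. Correlated arrays used statmod 1.5.0, and plots matplotlib 3.10.9.

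Named were probes passing the threshold (0), the 15 smallest p values in each direction, the panel, and in each list the highest, the lowest and those at unadjusted p under 0.05. From these the text takes those with a description and the leading ones without. The members and lists were chosen with earlier results of these data known, and descriptions come from lists the study selected on these samples. For 2 panel transcripts results are not reported here.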

Additional observations from a re-analysis of the deposited data

Results flagged for a closer look

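In 19 of 1920 probes (0.99%) all 3 mussels at 50 nM lay above the pool and all 3 at 100 nM below it. In 9 (0.469%) it was the reverse. Those named here were looked at again for that reason, and none passed the adjusted threshold in limma (each adjusted p was 0.998). They are Myt01-009H05, with no description and a log2 difference of -1.87, Myt01-012D05 (-0.82) and Myt01-002D04 (0.78), without similarity, the C1q protein MgC1q98 (-0.80), precollagen-P (-0.60), cyclophilin (-0.58) and 6-phosphogluconolactonase (-0.55). Groups of 3 mussels are too small for a test of single outlying samples.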

How the results depend on the processing

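The count at an adjusted p under 0.05 in limma was 0 in each of 28 other settings but 1, the replicate block with the sign of 50 nM replicate 3 turned, chosen after seeing the data, which called 1 probe, Myt01-008B03. The deviations of samples with the same number correlated weakly between the doses (-0.056, -0.066 and 0.087 for replicates 1, 2 and 3). The last of these values uses 50 nM replicate 3, whose direction is not settled. Whether the numbers pair the mussels in any other way was not tested. With the replicate block alone 86 probes had an unadjusted p under 0.05. Leaving out 1 mussel gave 74 to 136 such probes, the highest without 50 nM replicate 1. Over the 59 probes named in the text, 62 values under other settings changed sign and 1585 did not, and 86 list medians moved by more than the spread while 558 did not.

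With 50 nM replicate 3 left out, in the fit of all doses or of 5 mussels only, the differences with another sign among those 59 were 0.34 for inhibitor of apoptosis 1, 1.37 for Myt01-008B03, -0.42 for HSC70, -0.30 for GSTpi1, -0.0023 for microsomal GST3, -0.032 for chaperonin subunit 7 and -0.034 for HSP90 (Myt01-016G09). The deposited log2 values without that mussel gave 0.19, 0.96, -0.34, -0.11, -0.089, -0.063 and -0.11 in the same order, and -0.0031 for the taurine transporter. With its sign turned, in all doses, in 6 mussels only or with the replicate block, inhibitor of apoptosis 1 was at 0.18, Myt01-008B03 at 1.78, HSC70 at -0.20, GSTpi1 at -0.46, microsomal GST3 at -0.21, the byssal precursor Myt01-013C05 at 0.015 and Myt01-015D04 at 0.056. The deposited values so turned gave 0.033, 1.24, -0.16, -0.20 and -0.20 for the first 5 and 0.039 for Myt01-015D04. HSP90 (Myt01-015D01) was at 0.15 on arrays A, 0.016 in the deposited values and 0.036 with print-tip loess, and HSP90 (Myt01-016G09) at -0.15 on arrays B and -0.016 with median centring. HSC70 was at -0.34 on arrays B. Why these values moved was not tested.

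Over fits leaving out 1 mussel, differences ranged from -0.042 to 0.50 for GADD45 gamma, -1.37 to 0.34 for inhibitor of apoptosis 1, -2.73 to 1.37 for Myt01-008B03, -0.42 to 0.57 for HSC70, -0.30 to 1.47 for GSTpi1, -0.14 to 0.44 for small HSP24.1 (Myt01-011G05), -0.0023 to 0.86 for microsomal GST3, -0.032 to 0.78 for chaperonin subunit 7, -0.52 to 0.11 for HSP90 (Myt01-015D01), -0.11 to 1.48 for MgC1q8, -0.15 to 0.43 for HSP90 (Myt01-016G09) and -1.09 to 0.55 for DAD1. In the median probe the 95% interval reached 0.51 to either side, and no difference passed the adjusted threshold in the comparison as labelled, the lowest being -2.04 and the highest 2.53.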
